A study of Saccharomyces cerevisiae with 4 samples.

Results

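Iron, copper and zinc are needed by every yeast cell and are toxic in excess, so their uptake, storage and binding are each encoded by sets of dedicated genes. The 39 genes described here were taken from a list of iron uptake, siderophore, copper, manganese, zinc and metallothionein genes by matching gene names, out of 6336 genes on the array. Of these, 38 matched by their standard name, and AFT1 was found under its older name RCS1. The probes for CUP1-1 and CUP1-2 each name both genes, which are near-identical repeats, so their values cannot be assigned to one copy.

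Messenger RNA of 4 strains of Saccharomyces cerevisiae was compared on 2-colour arrays of oligonucleotides, on which cDNA of a pair of strains, stained with Alexa555 and Alexa647, competes for the same spots. The parental strain was S288C, of mating type MATα, with SUC2 and the alleles hap1, flo8-1, flo1, gal2, mal2 and mel besides ho, bio1 and bio6. TTY23 was derived from it by evolution at elevated temperature, AT22 by evolution with acetic acid at acidic pH, and TAT12 by evolving TTY23 further with acetic acid at acidic pH. All strains were grown under the same mild conditions, in defined medium with 2% glucose at 30 °C, pH 5.0 per the labels, and sampled in the middle of exponential growth, and the medium of every strain held iron, copper and zinc salts with the chelator EDTA. Each evolved strain was a single strain taken from an evolved population, so a difference belongs to that strain.

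The 4 comparisons were AT22 over S288C, TAT12 over S288C, TAT12 over TTY23 and TAT12 over AT22, each made once as a dye swap on 2 arrays (n = 1). On the first array the strain named first carried Alexa647, and on the second array the dyes were exchanged and the sign of the log2 ratio was turned, so that a positive value means more transcript in the strain named first on both. The sources used here do not say how many RNA extracts were made of a strain, so the spread between both arrays of a swap covers dye and hybridisation and not the spread between cultures. A gene was called where the mean of both arrays lay more than 2 SD from the mean of the 100 genes of nearest intensity, an absolute z-score above 2, which carries no p-value.

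In yeast, iron is reduced at the cell surface by ferric reductases and imported by a complex of a copper-containing oxidase and a permease, while siderophores, the iron chelators of other microbes, are held in the cell wall by mannoproteins and imported by their own transporters. Most of these genes are switched on by the activator Aft1 when iron is scarce. Mac1 switches on high-affinity copper uptake when copper is scarce, Cup2 (also called Ace1) switches on metallothionein genes when copper is abundant, and Zap1 switches on zinc transporter genes when zinc is scarce.

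In TAT12, transcripts read by the probes of the CUP1 metallothionein repeat and of the zinc importer ZRT1 were higher than in TTY23, and ZRT1 was also higher than in AT22. CUP1-2 was 2.10-fold, ZRT1 1.89-fold and CUP1-1 1.70-fold higher in TAT12 than in TTY23, while ZRT3 was 1.39-fold lower, and these 4 genes had the same sign on both arrays and a signal above background in both strains. ZRT1 was 2.01-fold higher in TAT12 than in AT22 on the arrays of that pair, and a fit that also used the S288C arrays gave a smaller difference. With the labelled directions, no FIT, siderophore transporter, iron oxidase or permease gene was called in any comparison, nor were AFT1, MAC1 and CUP2.

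Of the 39 genes, 7 (17.9%) were called in at least 1 comparison, beside 16.2% of all genes, and 32 were called in none. In AT22 over S288C 1 of 39 was called (0 higher, 1 lower), or 2.56%, beside 4.62% of all genes (0.537% higher, 4.09% lower). TAT12 over S288C had 2 calls (1 higher, 1 lower) beside 5.05% (3.11% higher, 1.94% lower). TAT12 over TTY23 had 4 calls (3 higher, 1 lower) beside 5.51% (3.08% higher, 2.43% lower), and TAT12 over AT22 had 4 calls (4 higher, 0 lower) beside 4.28% (3.38% higher, 0.9% lower). The shares of the members in these last 3 comparisons were 5.13%, 10.3% and 10.3%, and 2 of the 4 calls in TAT12 over TTY23 came from the probes of the CUP1 repeat, so the counts say little about the members as a group beyond the background. The medians of the members were 0.16, −0.050, −0.0099 and −0.022 on the log2 scale in the same order, beside 0.025, 0.020, 0.0080 and −0.010 over all genes.

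**Figure D1:**
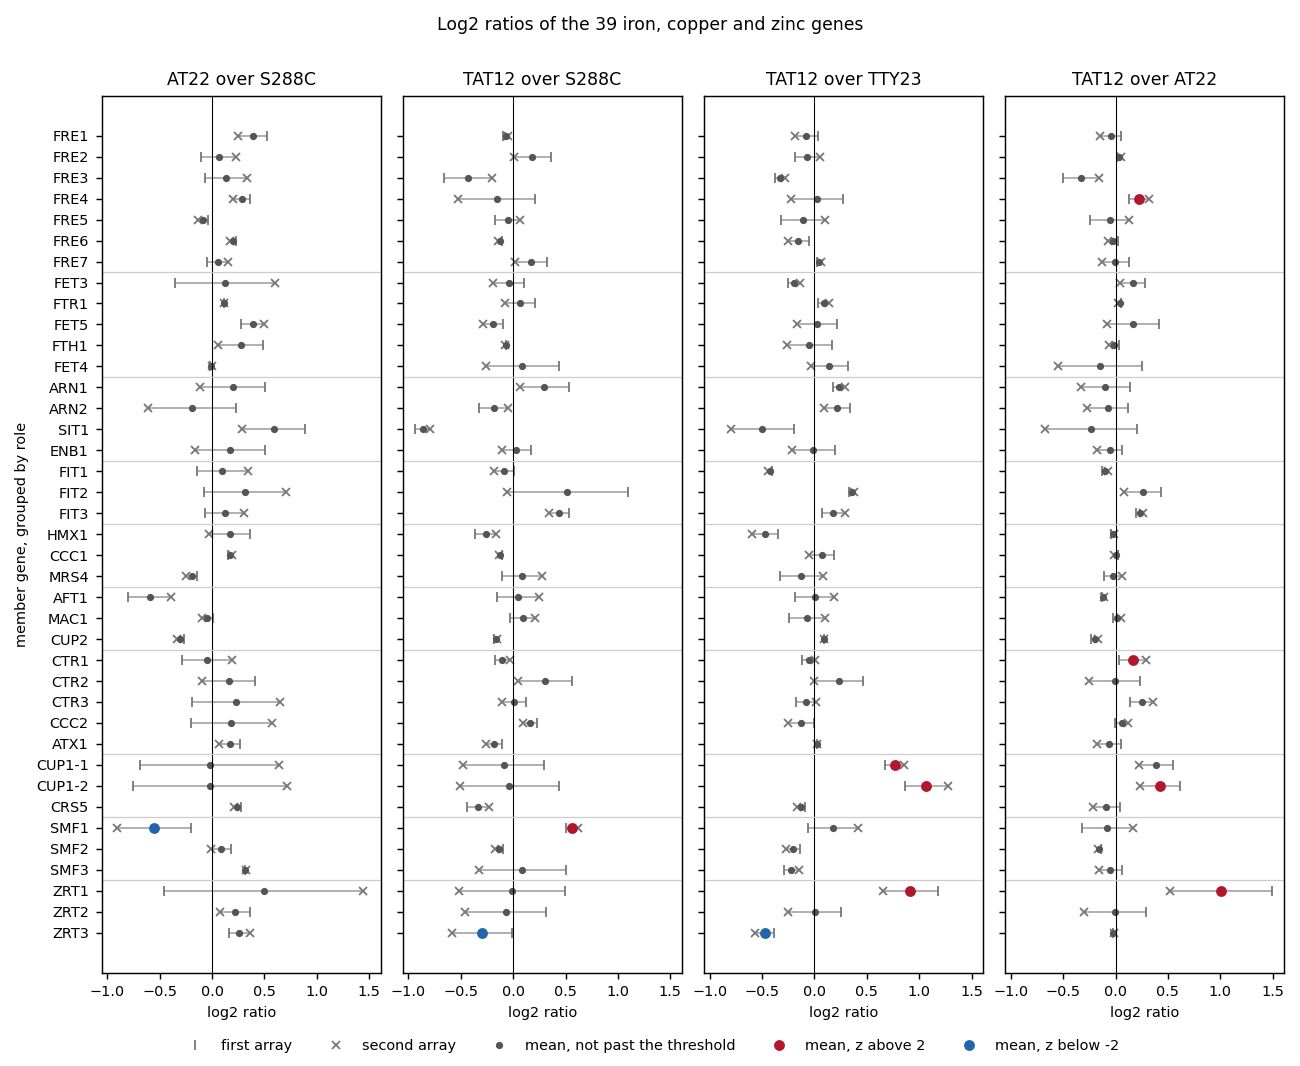
Log2 ratio of each of the 39 genes (rows, grouped by role between grey lines) in the 4 comparisons (panels), with the first array as a bar mark, the second array as a cross and their mean as a dot, red where the z-score was above 2 and blue where it was below -2. Most means lie near 0, and ZRT1, CUP1-1 and CUP1-2 stand to the right in TAT12 over TTY23 with both arrays well above 0.

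The limma fit across all genes, over the 4 dye-swap means with 1 residual degree of freedom, called 0 of 39 members and 0% of all genes in each comparison at a Benjamini-Hochberg adjusted p under 0.05. At an unadjusted p under 0.05 it held FIT2 and FIT3 in TAT12 over S288C, beside 3.99% of all genes, and CUP1-2 and CUP1-1 in TAT12 over TTY23, beside 2.37%, and 0 members in the other comparisons, beside 1.44% in AT22 over S288C and 1.48% in TAT12 over AT22. The difference for CUP1-2 in TAT12 over TTY23 was 1.07 ± 0.23 (SE of the limma fit, unadjusted p = 0.0039, adjusted p = 1.00). A fit over the 8 arrays with a dye term, which left 4 residual degrees of freedom, called 0 members as well, and 1, 4, 5 and 3 of them at an unadjusted p under 0.05 in the order of the comparisons, beside 6.69%, 9%, 5.67% and 3.27% of all genes. With the AT22 and S288C second array turned the fit over swap means also called 0 members, beside 0.0158% of genes in TAT12 over TTY23 and 0% elsewhere, and 8, 4, 6 and 8 at an unadjusted p under 0.05, beside 19.4%, 13.1%, 7.34% and 10.5%. In the fits over swap means TTY23 entered only 1 of the 4 means. The SE and p of CUP1-2 in TAT12 over TTY23 thus rest on how closely the comparisons among S288C, AT22 and TAT12 met. They also use the variance shared across genes, and they do not measure the spread between the arrays of TAT12 and TTY23. With 1 dye swap per comparison the design has little power, and the values below are descriptions of these strains' arrays.

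Signal limited what could be measured. Of the 39 genes, 12 gave a net signal above the limit set by empty spots (their 95th percentile) in each dye of all 8 arrays, among them ZRT1, CUP1-1, SIT1, CUP2 and all FIT genes. FRE7, MAC1 and CTR1 gave none above it in any of their 16 values. Both strains were above this limit on both arrays for 20 members in AT22 over S288C, 14 in TAT12 over S288C, 23 in TAT12 over TTY23 and 17 in TAT12 over AT22. These were 51.3%, 35.9%, 59.0% and 43.6% of the members, beside 60.7%, 41.2%, 63.2% and 42.0% of all genes. Of the 11 calls, 5 met it, and all 11 had the same sign on both arrays. A call rests on the mean of both arrays, so most called genes share their sign. Over all genes, 276 of 293, 270 of 320, 317 of 349 and 236 of 271 calls did, in the order of the comparisons.

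**Figure D2:**
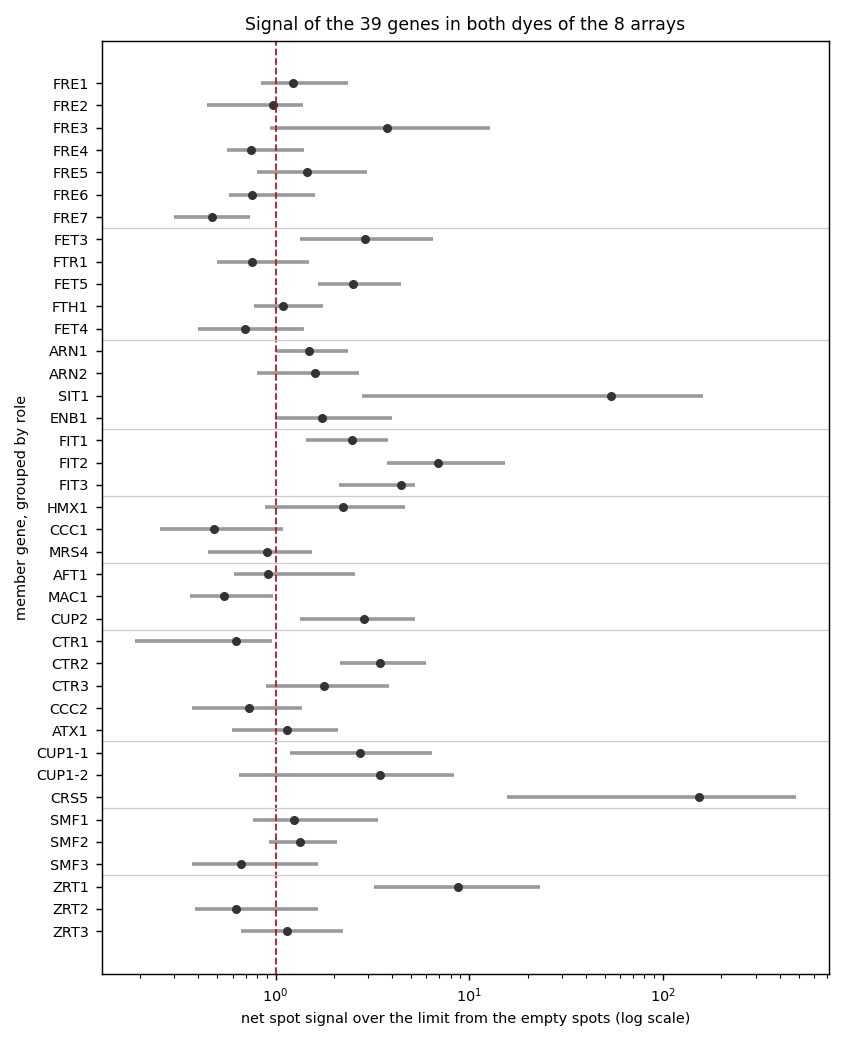
Net signal of each gene divided by the 95th percentile of the empty spots of the same array and dye (log scale), as the range (bar) and median (dot) of 16 values, with the limit as a dashed line. FRE7, MAC1 and CTR1 lie wholly left of the limit, and ZRT1, SIT1, CRS5 and the FIT genes lie wholly right of it.

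The direction of both comparisons with S288C is not settled. With the dyes as labelled, the second arrays of AT22 over S288C and TAT12 over S288C correlated at −0.59 over all genes and −0.56 over the members, although both hold S288C in the same dye, while the first arrays correlated at 0.18 over all genes and −0.26 over the members. Over all genes both arrays of a swap correlated at −0.030 in AT22 over S288C, 0.092 in TAT12 over S288C, 0.13 in TAT12 over TTY23 and −0.17 in TAT12 over AT22 after turning. Over the members alone these correlations were −0.23, 0.21, 0.65 and 0.30, as descriptions over 39 genes that share the arrays. Duplicate spots on an array correlated at 0.79 to 0.94. Values with S288C are therefore given as labelled and, for the genes the results turn on, also with the sign of the second array turned, for 1 comparison at a time. A turned mean treats each strain as carrying the same dye on both arrays. A dye effect on a gene then no longer cancels, so turned means, turned calls and the turned limma fit can hold dye effects. The lowest correlation over all genes between both arrays of a swap was that of TAT12 over AT22. Its second array was not turned here, so the values of that comparison rest on the labelled direction.

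**Figure D3:**
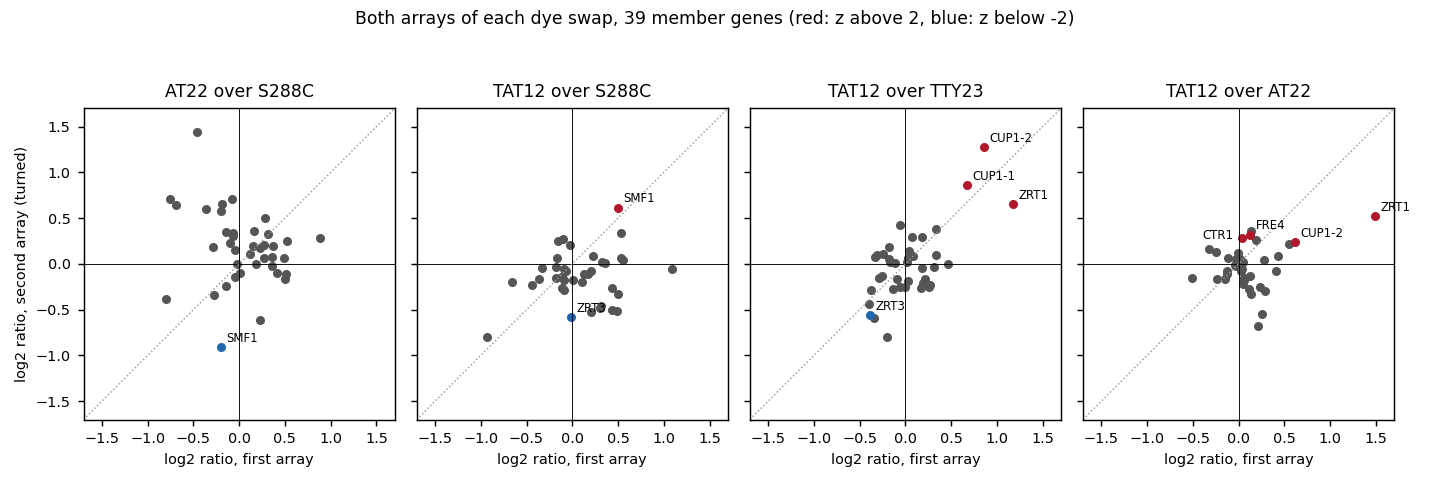
Log2 ratio of the 39 genes on the first array (horizontal) and on the second array after turning (vertical) of each dye swap, with called genes named in red (z-score above 2) or blue (below -2) and a dotted line of equality. In TAT12 over TTY23 the called genes lie close to the line and away from 0, and in AT22 over S288C the points of ZRT1, CUP1-1 and CUP1-2, not named there, lie below 0 on the first array and above 0 on the second.

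Among the zinc transporters, ZRT1 (YGL255W), the high-affinity zinc importer of the plasma membrane, had the largest log2 ratio of the members in TAT12 over AT22. Its log2 ratios were 1.49 on the first array and 0.52 on the second, with a mean of 1.00 and a z-score of 3.33, and its spots ranged from 0.44 to 1.57. In TAT12 over TTY23 they were 1.18 and 0.65, with a mean of 0.91 and a z-score of 2.72. All arrays of TAT12 against another evolved strain thus showed more ZRT1 transcript in TAT12, by differing amounts, and the second array alone did not reach the threshold in either comparison, with z-scores of 1.63 and 1.74.

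Against S288C the ZRT1 arrays disagreed. AT22 over S288C gave −0.46 on the first array and 1.44 on the second, and TAT12 over S288C gave 0.49 and −0.52, with means of 0.49 and −0.01. With the second array turned, AT22 over S288C became −0.95 with a z-score of −2.04, which passed the threshold, and TAT12 over S288C became 0.50 with a z-score of 1.46. The order of ZRT1 levels between S288C and the evolved strains thus depends on the direction chosen. Its higher level in TAT12 than in AT22 and TTY23, as labelled, was read from arrays without S288C. The limma fit over swap means also draws on the S288C arrays. It gave a smaller log2 ratio of ZRT1 in TAT12 over AT22, 0.50 beside 1.00 on the arrays of that pair.

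ZRT3 (YKL175W), which exports stored zinc from the vacuole, was lower in TAT12 than in TTY23. Its log2 ratios were −0.38 and −0.56, with a mean of −0.47 and a z-score of −2.90, and every spot lay below 0, from −0.59 to −0.35. The first array alone gave a z-score of −1.50 and the second −2.58. ZRT1 and ZRT3 therefore stood on opposite sides of 0 in this comparison, both above background in both strains. In TAT12 over AT22 the values of ZRT3 were −0.02 on each array, and in AT22 over S288C they were 0.16 and 0.36, with a mean of −0.10 once the second array was turned. In TAT12 over S288C ZRT3 was called lower at a z-score of −2.02, just past the threshold, but its signal was below the empty-spot limit in both strains, so no fold is given, and its z-score with the second array turned was 1.31.

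ZRT2 (YLR130C), the low-affinity zinc importer, was called in none. It was 0.36 and 0.08 in AT22 over S288C, 0.31 and −0.46 in TAT12 over S288C, 0.25 and −0.25 in TAT12 over TTY23, and 0.29 and −0.30 in TAT12 over AT22. The last 3 pairs have opposite signs, and only 1 of its 16 signals was above the empty-spot limit. Turned, its means were 0.14 in AT22 over S288C and 0.39 in TAT12 over S288C. Outside the list, ZAP1, which encodes the zinc-responsive activator, was −0.26 and 0.20 in TAT12 over TTY23 and −0.23 and 0.21 in TAT12 over AT22, not called in either and below background.

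The metallothioneins, small cysteine-rich proteins that bind copper, gave the highest z-scores of the list. For CUP1-1 (YHR053C) the log2 ratios of TAT12 over TTY23 were 0.68 and 0.86, with a mean of 0.77 and a z-score of 3.60. For CUP1-2 (YHR055C) they were 0.86 and 1.27, with a mean of 1.07 and a z-score of 3.41. Both probes passed the threshold on each array alone, with z-scores of 2.63 to 3.81, and no spot lay below 0.56.

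The same probes were also above 0 on both arrays of TAT12 over AT22, at 0.55 and 0.22 for CUP1-1 and 0.61 and 0.24 for CUP1-2. The mean of CUP1-2 was 0.42 with a z-score of 2.86 and was called, although 1 of its 4 signals was below the limit and its z-scores on the arrays alone were 1.97 and 0.92, and that of CUP1-1 was 0.38 with a z-score of 1.97 and was not. In AT22 over S288C they were −0.69 and 0.64 for CUP1-1 and −0.75 and 0.71 for CUP1-2, and in TAT12 over S288C 0.30 and −0.48 for CUP1-1 and 0.43 and −0.50 for CUP1-2. The arrays of each swap with S288C thus cancelled, with means between −0.09 and −0.02. Turning the second array gave −0.66 and −0.73 in AT22 over S288C (z-scores −2.40 and −2.18, both called) and 0.39 and 0.47 in TAT12 over S288C (z-scores 1.12 and 1.56). A dye effect of these probes would not cancel in the turned means.

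CRS5 (YOR031W), a further copper-binding metallothionein, did not follow CUP1. Its log2 ratios were 0.24 in AT22 over S288C, −0.34 in TAT12 over S288C, −0.13 in TAT12 over TTY23 and −0.09 in TAT12 over AT22, and no z-score passed the threshold. Turned, CRS5 was 0.03 in AT22 over S288C and −0.11 in TAT12 over S288C. CUP2 (YGL166W), the copper-sensing activator of the CUP1 genes, was 0.09 on each array of TAT12 over TTY23 and −0.23 and −0.17 in TAT12 over AT22. It was −0.18 and −0.16 in TAT12 over S288C and −0.27 and −0.34 in AT22 over S288C, where turning the second arrays gave −0.01 and 0.03. All signals of CUP2 were above the limit, and its z-scores ranged from −1.09 to 0.28.

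**Figure D4:**
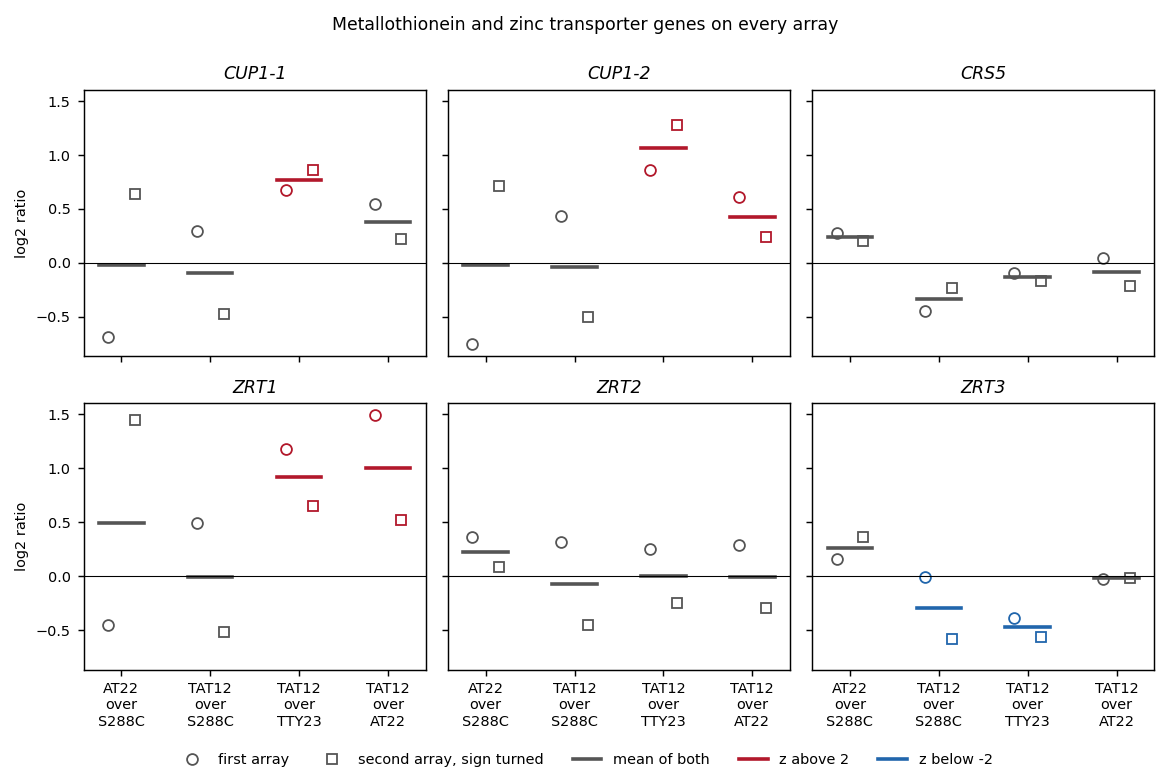
Log2 ratios of the metallothionein genes (upper row) and zinc transporter genes (lower row) in the 4 comparisons, with the first array as a circle, the second array after turning as a square and their mean as a bar, red or blue where the z-score passed 2. CUP1-1, CUP1-2 and ZRT1 are above 0 on both arrays of TAT12 over TTY23 and of TAT12 over AT22 and on opposite sides of 0 in both comparisons with S288C.

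Through TAT12, the ratio of TTY23 over S288C can be estimated without an array of its own, as the difference of both TAT12 comparisons. With the labelled directions it was −0.86 for CUP1-1, −1.10 for CUP1-2 and −0.93 for ZRT1, beside a median of 0.039 over the members and 0.018 over all genes. With the second array of TAT12 and S288C turned these estimates were −0.38, −0.60 and −0.41. They rest on the same TAT12 over TTY23 arrays as the values above and carry no test.

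Among the copper transport genes, CTR1 (YPR124W), a high-affinity copper importer of the plasma membrane, was called higher in TAT12 over AT22 at a z-score of 2.51. Its log2 values were 0.04 and 0.29, but its signal was below the empty-spot limit in both strains on both arrays, and no fold is given. CTR3, a further high-affinity importer whose signals were above the limit there, was 0.14 and 0.36 with a z-score of 1.28. Its mean against S288C moved from 0.23 to −0.42 in AT22 and from 0.01 to 0.12 in TAT12 when the second array was turned. CTR2, which moves copper out of the vacuole, CCC2, the copper pump that loads the iron oxidase Fet3, and ATX1, the chaperone that delivers copper to it, were not called. The medians of the 5 copper transport genes ran from −0.053 to 0.17 over the comparisons. MAC1 (YMR021C) had a signal below the limit throughout, with log2 values of 0.01 and −0.10 in AT22 over S288C, −0.03 and 0.21 in TAT12 over S288C, −0.24 and 0.10 in TAT12 over TTY23, and −0.03 and 0.05 in TAT12 over AT22.

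Turning the second array of the swap gave 5 members past the threshold in AT22 over S288C (1 higher, 4 lower), beside 4.02% of all genes (1.2% higher, 2.83% lower). CUP1-1, CUP1-2, ZRT1 and CCC2 were lower in AT22 and ARN2, a siderophore transporter, was higher. Only 2 of 4 signals of CCC2 and 3 of 4 of ARN2 were above the empty-spot limit there, and ARN2 just passed at a z-score of 2.09. Turning instead the second array of TAT12 and S288C, 0 of 39 passed in TAT12 over S288C, beside 4.91% of all genes. The members' median then moved from 0.16 to 0.0012 in AT22 over S288C, and from −0.050 to 0.093 in TAT12 over S288C.

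The loop of S288C, AT22 and TAT12 gives TAT12 over S288C along separate arrays, directly and through AT22, by adding AT22 over S288C to TAT12 over AT22. As labelled, both estimates had the same sign for 17 of 39 members and 2842 of 6336 genes. With the array of AT22 and S288C turned they had it for 20 members and 3582 genes, and with the array of TAT12 and S288C turned for 31 members and 4396 genes. The SD of the difference between both estimates over the members was 0.47 as labelled and 0.31 and 0.29 with either array turned. The loop thus came closer with either turn and did not settle which array, if any, was opposite to its label. No array of TAT12 and AT22, the remaining side of the loop, was turned, so its direction was not examined. ZRT1 was −0.01 directly and 1.50 through AT22 as labelled, −0.01 and 0.05 with the AT22 array turned, and 0.50 and 1.50 with the TAT12 array turned.

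**Figure D5:**
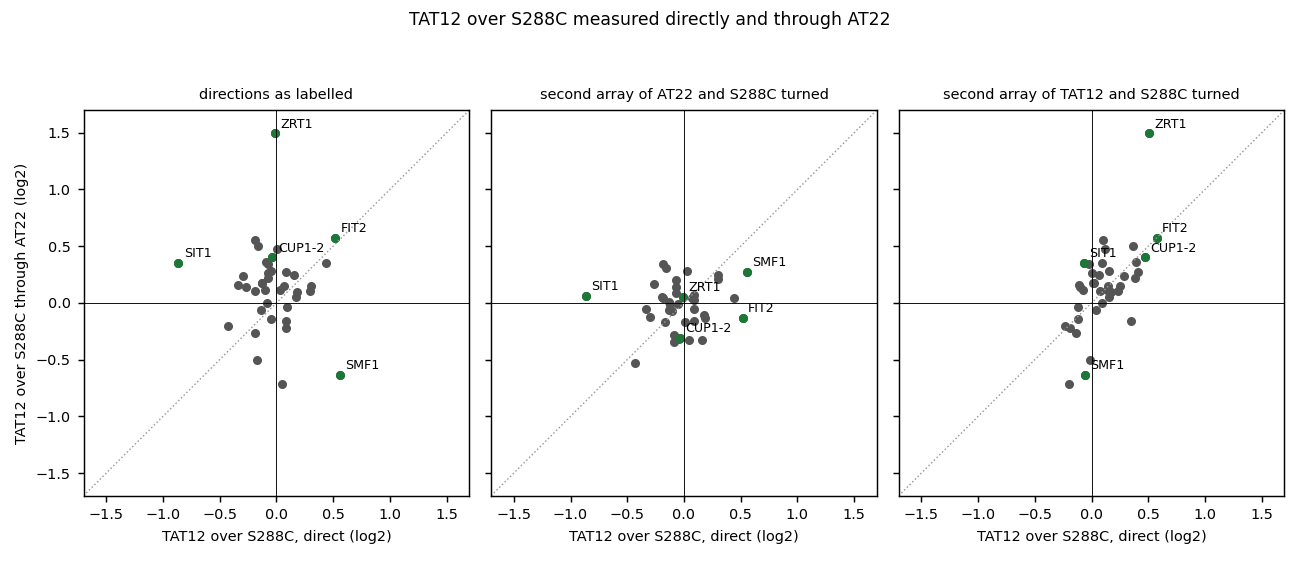
TAT12 over S288C of the 39 genes measured directly (horizontal, log2) and through AT22 (vertical, log2), with the directions as labelled (left), with the AT22 and S288C second array turned (middle) and with that of TAT12 and S288C turned (right), and a dotted line of equality. Genes of the same sign on both axes number 17, 20 and 31 of 39.

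The 3 FIT genes encode cell wall mannoproteins that retain siderophore iron, and all were well above the empty-spot limit. FIT1 (YDR534C) was −0.40 and −0.44 in TAT12 over TTY23, with a mean of −0.42 and a z-score of −1.88, short of the threshold. It was −0.14 and 0.34 in AT22 over S288C, 0.01 and −0.18 in TAT12 over S288C, and −0.13 and −0.07 in TAT12 over AT22. FIT1 thus lay below 0 on both arrays of TAT12 against each of the other evolved strains.

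FIT2 (YOR382W) lay on the other side. Its values were 0.33 and 0.38 in TAT12 over TTY23, 0.44 and 0.08 in TAT12 over AT22, 1.09 and −0.06 in TAT12 over S288C, and −0.08 and 0.71 in AT22 over S288C. FIT3 (YOR383C) was 0.07 and 0.30 in TAT12 over TTY23, 0.19 and 0.27 in TAT12 over AT22, 0.54 and 0.34 in TAT12 over S288C, and −0.06 and 0.31 in AT22 over S288C. FIT2 and FIT3 were therefore above 0, and FIT1 below 0, on both arrays of both comparisons between evolved strains. Over all genes, 50% had the same sign on both arrays of TAT12 over TTY23 and 42.1% in TAT12 over AT22. With the second arrays turned, FIT1, FIT2 and FIT3 were −0.24, −0.39 and −0.19 in AT22 over S288C and 0.09, 0.57 and 0.10 in TAT12 over S288C. As labelled, the z-scores of the 3 genes lay between −1.88 and 1.20 over the 4 comparisons.

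In the limma fit, FIT2 in TAT12 over S288C was 0.54 ± 0.16 (SE, unadjusted p = 0.018, adjusted p = 1.00) and FIT3 was 0.41 ± 0.16 (SE, unadjusted p = 0.049, adjusted p = 1.00). In the limma fit with a dye term the unadjusted p was 0.052 for FIT2 and 0.0059 for FIT3 (adjusted p = 0.56 and 0.42), and in the limma fit over swap means with the AT22 and S288C array turned it was 0.12 and 0.060 (adjusted p = 0.49 and 0.40). The fit over swap means pools the direct comparison with the route through AT22. Its SE leaves out the spread between both arrays of a swap. The direct comparison alone had a mean of 0.52 for FIT2, from arrays at 1.09 and −0.06, and of 0.44 for FIT3, from arrays at 0.54 and 0.34. Neither gene passed after adjustment over all genes in these fits.

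SIT1 (YEL065W), the ferrioxamine transporter, had the lowest log2 ratio of the members in TAT12 over S288C. Its values were −0.93 and −0.80, with a mean of −0.86, but genes of like intensity were widely spread and its z-score was −1.58. It was −0.20 and −0.80 in TAT12 over TTY23, 0.21 and −0.68 in TAT12 over AT22, and 0.89 and 0.29 in AT22 over S288C. SIT1 was below 0 on 5 of the 6 arrays with TAT12, and with the second array turned its mean was −0.07 in TAT12 over S288C and 0.30 in AT22 over S288C. The other siderophore transporters, ARN1, ARN2 and ENB1 (the enterobactin transporter), were not called, with log2 ratios from −0.19 to 0.30, apart from ARN2 with the AT22 array turned.

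FRE1 (YLR214W) and FRE2 (YKL220C) encode the main ferric and cupric reductases of the cell surface, and neither was called. FRE1 was 0.52 and 0.25 in AT22 over S288C, with a z-score of 1.74, and −0.10 and −0.05 in TAT12 over S288C, 0.03 and −0.18 in TAT12 over TTY23, and 0.06 and −0.15 in TAT12 over AT22. FRE2 was −0.10 and 0.23, 0.36 and 0.01, −0.18 and 0.05, and 0.01 and 0.05 in the same order, with 5 of 16 signals above the limit. Turned, FRE1 was 0.14 and FRE2 −0.16 in AT22 over S288C, and −0.02 and 0.17 in TAT12 over S288C. In the comparisons of TAT12 as labelled, the z-scores of both genes lay between −0.75 and 0.76.

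FRE3 and FRE4, which reduce siderophore-bound iron, differed from each other. FRE3 was below 0 on both arrays of TAT12 against each other evolved strain, at −0.37 and −0.28 over TTY23 and −0.50 and −0.16 over AT22, with z-scores of −0.91 and −1.51 that did not pass the threshold. In TAT12 over S288C it was −0.66 and −0.20 as labelled, with a mean of −0.43 that became −0.23 with the second array turned. FRE4 (YNR060W) was called higher in TAT12 over AT22 at 0.13 and 0.32, with a z-score of 2.07, but its spots ranged from −0.19 to 0.83. AT22 was below the empty-spot limit on both arrays there and TAT12 above it on only 1 array, so no fold is given. FRE5, FRE6 and FRE7 were not called, with log2 ratios from −0.15 to 0.20, so 1 of the 7 reductase genes was called in 1 comparison.

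FET3, the multicopper oxidase of high-affinity iron uptake, and its permease partner FTR1 were called in none, nor were FET5 and FTH1, which encode the corresponding pair of the vacuole membrane, nor FET4, a low-affinity iron importer. The 5 genes ranged from −0.19 to 0.39 over the comparisons, with medians between −0.043 and 0.12. FET3, above the limit on all arrays, was −0.36 and 0.60 in AT22 over S288C, 0.11 and −0.19 in TAT12 over S288C, −0.25 and −0.14 in TAT12 over TTY23, and 0.28 and 0.05 in TAT12 over AT22. With the second array turned, its means against S288C were −0.48 in AT22 and 0.15 in TAT12.

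Of the genes for iron inside the cell, HMX1, the heme oxygenase, was −0.34 and −0.59 in TAT12 over TTY23, with a mean of −0.47 and a z-score of −1.37, and −0.04 and −0.02 in TAT12 over AT22. CCC1, the vacuolar iron importer, and MRS4, a mitochondrial iron carrier, ranged from −0.19 to 0.17, and neither was called. AFT1 (YGL071W) was −0.80 and −0.39 in AT22 over S288C, the lowest mean of the members there at −0.59, with a z-score of −1.84. It was −0.16 and 0.25 in TAT12 over S288C, −0.18 and 0.19 in TAT12 over TTY23, and −0.13 and −0.11 in TAT12 over AT22. With the second array turned its mean was −0.21 in AT22 over S288C and −0.20 in TAT12 over S288C. Only 8 of the 16 signals of AFT1 were above the empty-spot limit, and in no comparison were both strains above it on both arrays.

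The Nramp carriers import manganese and other divalent metals. SMF1 (YOL122C), the plasma membrane member, was called in both comparisons with S288C and in opposite directions. It was −0.20 and −0.91 in AT22 over S288C, with a mean of −0.55 and a z-score of −2.08, and 0.50 and 0.62 in TAT12 over S288C, with a mean of 0.56 and a z-score of 2.45. Each pair had the same sign on both arrays, and 1 of 4 signals was below the limit in each comparison. With the second array turned, SMF1 became 0.35 in AT22 over S288C and −0.06 in TAT12 over S288C, so both calls were lost, each with a change of sign. Between evolved strains it was −0.06 and 0.42 in TAT12 over TTY23 and −0.32 and 0.16 in TAT12 over AT22, with opposite signs on the arrays. SMF2, of intracellular vesicles, and SMF3, of the vacuole, were not called.

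A wider list of 45 metal genes outside the 39 held regulators, iron-sulfur cluster, copper delivery and further zinc genes, of which 44 were on the array. In AT22 over S288C 0 were higher and 3 lower, in TAT12 over S288C 1 higher and 2 lower, in TAT12 over TTY23 1 higher and 0 lower, and in TAT12 over AT22 1 higher and 1 lower, each near the background shares given above. YFH1, the mitochondrial iron chaperone frataxin, was called higher in TAT12 over S288C (0.68 and 0.27) and in TAT12 over TTY23 (0.51 and 0.07). CTH1, SCO2 and ZAP1 were called lower in AT22 over S288C, where ZAP1 kept its call with the second array turned, at −0.61 as labelled and −0.50 turned, while CTH1 and SCO2 lost theirs. GRX3, a glutaredoxin that takes part in iron sensing, was above background in both strains there and was called lower with the array turned, at −1.01 and a z-score of −2.45, from 0.20 as labelled. MMT1 and IZH1 were called lower in TAT12 over S288C. With that second array turned YFH1, MMT1 and IZH1 lost their calls there, and NFS1 and SCO2, each with a signal below the limit, were called lower at −0.77 and −0.38. SOD1, the copper and zinc superoxide dismutase, was called higher and IZH3 lower in TAT12 over AT22 with opposite signs on the arrays. At least 1 signal of each gene called as labelled was below the empty-spot limit in the comparison that called it.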

How the data were processed

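The labels give 4 comparisons, each with n = 1. Per array, the authors deposited mean spot intensity and local background intensity in each dye, not normalized, and a z-score per gene and comparison made with genArise, used only as an alternative. Coordinates are left out, as no build is named in the files. Background was corrected with normexp (offset 50) and ratios were normalized by loess within each array, with empty and control spots at weight 0, in limma 3.58.1 (R 4.3.3). Duplicate spots and both arrays of a swap were averaged. The z-score used the 100 genes nearest in intensity. The limma fit had 3 coefficients over 4 swap means, and p-values were adjusted by Benjamini-Hochberg over 6336 genes. Scripts ran in Python 3.11.15 (numpy 2.4.6, pandas 2.3.3, matplotlib 3.10.9) and were tested on simulated data. The members and lists were chosen with earlier results of these data known. Genes given by array were those called, the FIT, ZRT and CUP1 families, AFT1, MAC1, CUP2, and FRE1, FRE2 and SIT1, in which, like CUP2, the study lists sequence variants. CRS5, FRE3, FET3, HMX1, CTR3 and ZAP1 were added by array after their values were seen, as was the turned array of TAT12 and S288C. Promoter motifs were not analysed here. Alternatives covered the background, the normalization, dim spots, single arrays, the authors' scores, the z-score window, the threshold and the array direction.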

Additional observations from a re-analysis of the deposited data

Results flagged for a closer look

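SMF1 was −0.55 in AT22 over S288C and 0.56 in TAT12 over S288C on the log2 scale, with each swap's arrays on one side of 0 and the comparisons on opposite sides. ZRT3 was 0.26 in AT22 over S288C and −0.30 in TAT12 over S288C, again with all arrays of each comparison on one side. In TAT12 over S288C the signal of ZRT3 was below the empty-spot limit in both strains on both arrays, and its first array lay close to 0 at −0.01 with spots up to 0.12. Both were picked out because every array of one strain moved one way and every array of the other the opposite way. The difference was not tested, both comparisons share S288C, and the direction of their second arrays is not settled.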

How the results depend on the processing

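No paired analysis was possible because the labels share no replicate numbers and each comparison was made once, so no replicate could be left out either. Against 1 call among the members in AT22 over S288C, 0 were called with 200 genes behind the z-score, with the authors' z-scores (37 members), at a fold change of at least 2 and among the 20 members above background, 2 by the first or the second array alone and with median centring, 12 at a threshold of 1, and 5 with its second array turned. Against 2 calls in TAT12 over S288C, 1 was left with 200 genes, with median centring and with no background correction, 0 with the authors' z-scores (36 members), either array alone, the fold change, the 14 members above background and its second array turned, and 13 at a threshold of 1. In TAT12 over TTY23 the 4 calls became 1 at the fold change and 16 at a threshold of 1, and stayed between 3 and 5 otherwise. In TAT12 over AT22 the 4 calls became 1 with the authors' z-scores (37 members) and at the fold change, 2 by either array alone and among the 17 members above background, and 10 at a threshold of 1. The authors' z-scores held no value for ZRT1 and CUP1-2. Turning the second array reversed SMF1 in AT22 over S288C (0.35), and SMF1 (−0.058) and ZRT3 (0.28) in TAT12 over S288C. The cause was not tested. The limma fit called 0 members with the AT22 array turned as well, where the smallest adjusted p of a member was 0.052, for ZRT1 in AT22 over S288C. The residual of that fit is the gap left by the loop of S288C, AT22 and TAT12, which this turn made smaller. In that limma fit 19.4% of all genes had an unadjusted p under 0.05 in AT22 over S288C, beside 1.44% as labelled. The value for ZRT1 therefore depends on the turn chosen. CUP1-1 and CUP1-2 in TAT12 over TTY23 passed a z-score of 2 under every alternative that gave them one, and ZRT1 there under each but the second array alone. The number of arrays and dim spots limit the precision.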
